A study of Arabidopsis thaliana with 16 samples.

Results

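Class III peroxidase genes were followed along the Arabidopsis root and between 2 media. The family was taken as 60 listed loci, and a locus was measured where a probe set was annotated to it alone. Such a probe set was present for 47 of the 60, out of 22746 probe sets in all. Of the 47, 36 passed a filter on low values and were tested.

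Class III peroxidases are secreted heme enzymes of plants. They use hydrogen peroxide to oxidise phenolic compounds, which joins lignin units and other wall phenolics and stiffens the wall, and they can also make reactive oxygen that loosens it. In roots they are known for the lignin of the Casparian strip (a barrier in the endodermis) and of xylem vessels, for the growth of root hairs, and for the balance of reactive oxygen that marks where cells stop dividing and begin to elongate.

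Seedlings of Arabidopsis thaliana, ecotype Columbia, grew for 5 days on standard medium, which held iron as Fe(III)-EDTA. They were then moved to standard medium or to iron-deficient (-Fe) medium, where 0.3 mM Ferrozine, an iron chelator, took the place of the iron salt. Each root was cut into 4 pieces: zone 1, the tip up to about 150 µm; zone 2, about 200 µm more, to roughly the end of the meristem; zone 3, a stretch of 200 to 300 µm that stopped short of the first root hairs; and zone 4, the next 1 mm. The 4 zones on 2 media made 8 groups of 2 Affymetrix arrays, 16 in all, each array from about 15 pooled roots. By their descriptions, standard samples were taken 1 h and -Fe samples 24 h after transfer, but the protocol states 24 h for all. Should the descriptions be right, medium and time since transfer cannot be told apart.

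The 13 loci with no probe set of their own included well-known members. AT1G05260 (PRX3) and AT5G42180 (PER64) of the Casparian strip, AT5G67400 (PRX73) and AT5G22410 (PRX60) of root hairs, and AT3G49110 (PRX33) and AT3G49120 (PRX34) of the defence oxidative burst were not analysed here. AT1G14540, AT3G32980 and AT5G06720 (PRX53) were not analysed either. The other 4 lay in pairs on 2 shared probe sets, AT2G38380 with AT2G38390 and AT4G37520 with AT4G37530. The 11 members below the filter were AT5G05340 (PRX52, linked to lignin of the stem), AT3G50990 (PER36, linked to seed mucilage release), AT1G24110, AT2G35380, AT3G03670, AT4G17690, AT5G19880, AT5G19890, AT5G47000, AT5G58390 and AT5G58400. Their intensities ran from 0.449 to 133 with a median of 7.38, and 82 of their 176 values lay above the offset of 7.73 used on the log scale.

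Intensities are MAS5 signals on a linear scale, and differences are of log2(intensity + 7.73), which understates the change of dim probe sets. Adjusted p-values are from limma, Benjamini-Hochberg adjusted over 16505 probe sets, with a threshold of 0.05. Replicates correlated at r = 0.92 to 0.97 over these probe sets. The peroxidase genes differed more between replicates than probe sets at large in every group. The SD of their log2 replicate difference was 1.49 in zone 2 and 1.59 in zone 3 on standard medium, against 0.634 and 0.829 for all probe sets. In zone 2 on standard medium 19 of the 36 members were over 2-fold higher in replicate 1 and 0 in replicate 2, against 7.1% and 1.98% of all probe sets. In zone 3 on standard medium 13 were over 2-fold higher in replicate 1 and 4 in replicate 2, against 14.5% and 4.53% of all probe sets. Replicate 1 was the higher for 22 to 32 of the 36 members in each of the 8 groups. The root hair marker genes EXPA7 and EXPA18 moved the same way in zone 2, at 397 and 248 in replicate 1 but 31.1 and 30.7 in replicate 2. In zone 3 on standard medium they differed little, at 3218 and 3194 for EXPA7 and 3270 and 3145 for EXPA18. The part of these cells in the spread was not tested. Of the marker lists, 2 of 8 root hair genes and 1 of 6 meristem genes were measured, and 0 of those for endodermis, xylem, phloem and root cap. Expression in pieces of tissue is bulk expression, so fewer cells of a type and less RNA per cell cannot be told apart.

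Most members changed along the root. The moderated F test over the 4 zones passed for 33 of the 36 tested members on standard medium, where 73.7% of all probe sets passed, and for 34 on -Fe medium, where 77.4% did. A member bright in a single zone could enter the test through that zone, so these counts are a description. On standard medium the highest group mean fell in zone 1 for 1 member, in zone 2 for 5, in zone 3 for 11 and in zone 4 for 19. On -Fe medium these numbers were 2, 4, 16 and 14. Of all probe sets on standard medium, 37.6%, 15%, 19.9% and 27.6% peaked in zones 1 to 4. On -Fe medium these shares were 38.6%, 15.6%, 18.1% and 27.7%. A member peaked in the same zone on both media in 29 of 36 cases (80.6%), against 80.4% of all probe sets.

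**Figure D1:**
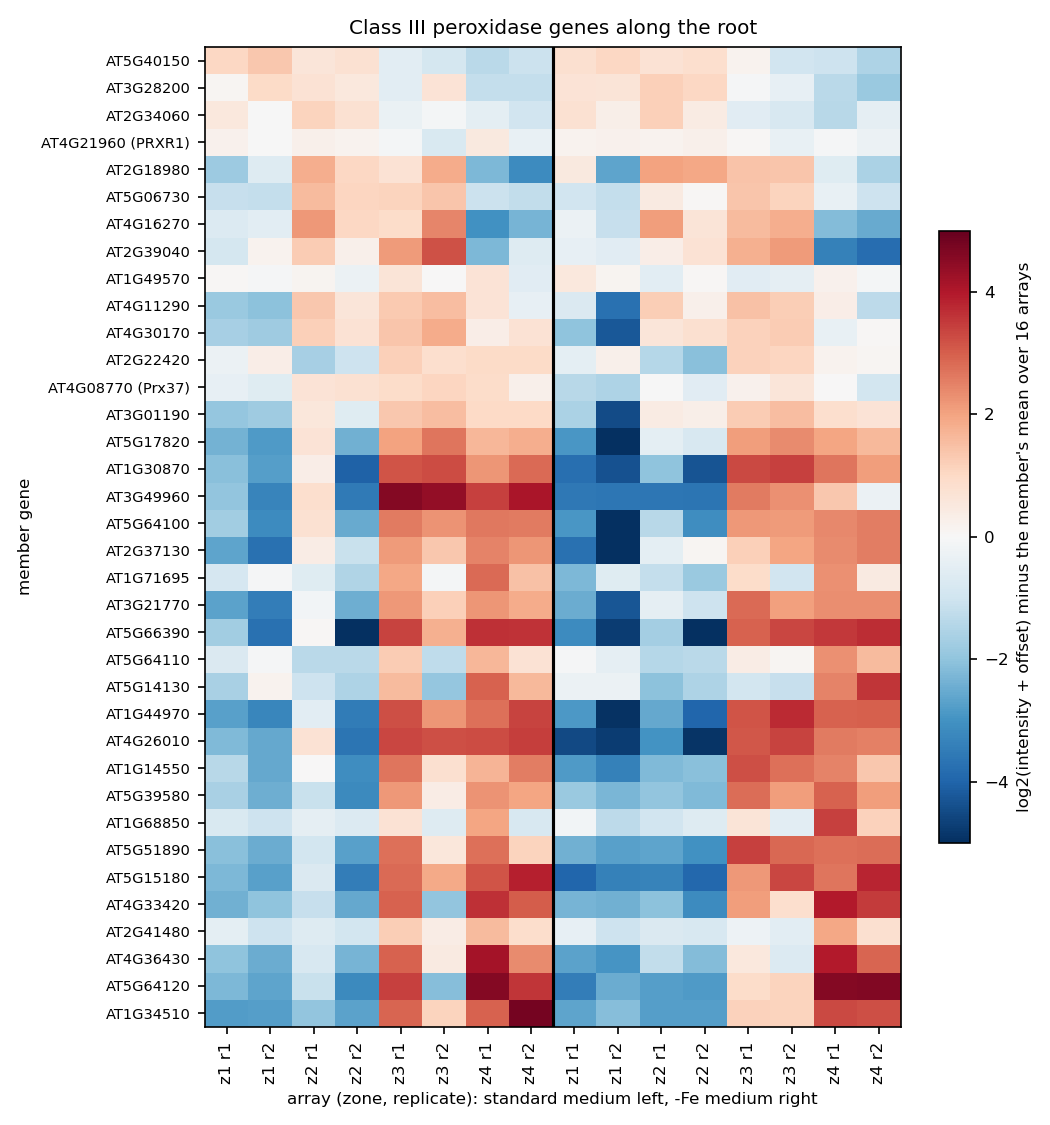
Heat map of the 36 tested members (vertical axis) on the 16 arrays (horizontal axis, by zone and replicate, standard medium left and -Fe medium right). Colour is log2(intensity + offset) minus the member's mean over the 16 arrays, capped at 5 in either direction. Members are ordered by the zone of their peak on standard medium, and most are high in zones 3 and 4 on both media. In zone 2 and in zone 3 on standard medium, most members are lower in replicate 2 than in replicate 1.

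The step from zone 2 to zone 3, from the end of the meristem to the piece below the first root hairs, held the most calls. On standard medium 18 members rose and 2 fell, where 22.9% of all probe sets rose and 27.1% fell (50% in either direction). On -Fe medium 19 rose and 3 fell, where 22.9% rose and 27.8% fell (50.6%). The median difference of the members was 2.02 on standard and 1.61 on -Fe medium, against -0.06 and -0.09 for all probe sets. The count on standard medium was 11 without zone 2 standard replicate 2, and 11 of the 20 calls stood without any single array. On -Fe medium 14 of 22 did.

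From zone 1 to zone 2, within the tip and meristem, 7 members rose and 1 fell on standard medium, where 10.6% of all probe sets rose and 9.83% fell (20.5%). On -Fe medium 10 rose and 1 fell, where 13.4% rose and 17.2% fell (30.7%). The standard count hung on single arrays: it was 4 and 2 without zone 1 standard replicate 1 and 2, 1 without zone 2 standard replicate 1 and 15 without zone 2 standard replicate 2. On -Fe medium the count dropped to 3 when replicate 2 of zone 1 was left out, and to 5 and 7 when replicate 1 or 2 of zone 2 was.

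From zone 3 to zone 4, into the root hair zone, 4 members fell and 0 rose on standard medium, where 5.3% of all probe sets fell and 3.28% rose (8.58%). At an unadjusted p under 0.05, 10 members (27.8%) differed in either direction in this step, against 26.4% of all probe sets. On -Fe medium 5 fell and 4 rose, where 8.74% fell and 6.82% rose (15.6%). Without zone 3 standard replicate 1 the standard count was 11, with 6 higher and 5 lower. The -Fe count was 4 without either zone 3 -Fe replicate or without zone 4 -Fe replicate 2.

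The steps were set side by side between the media, which share no arrays. From zone 2 to zone 3, 18 members were called on both media in 1 direction, 2 on standard alone, 4 on -Fe alone and 12 on neither. From zone 1 to zone 2, 8 were called on both, 0 on standard alone and 3 on -Fe alone, and from zone 3 to zone 4 these numbers were 4, 0 and 5. The members called on both made up 22.2%, 50% and 11.1% of the 36 from the tip upwards, against 17.8%, 42% and 6.3% of all probe sets. Those called on standard alone made up 0%, 5.56% and 0%, against 2.62%, 7.99% and 2.27% of all probe sets. Those called on -Fe alone made up 8.33%, 11.1% and 13.9%, against 12.8%, 8.65% and 9.25%. No member was called in opposite directions. Across the 36 members the steps on the media correlated at r = 0.90, 0.94 and 0.90 from the tip upwards, as a description across genes. The same r over all probe sets was 0.90, 0.94 and 0.79.

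**Figure D2:**
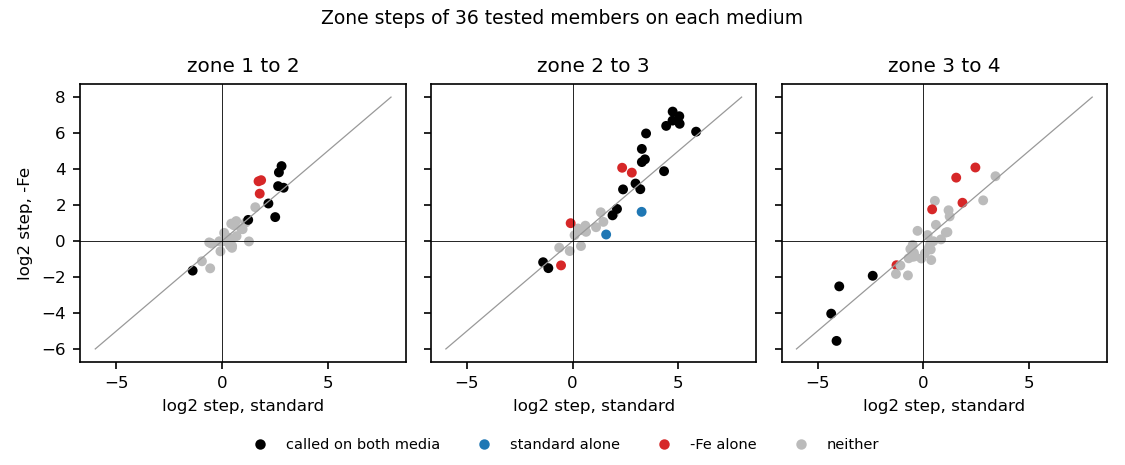
Scatter plots of the log2 difference of each zone step on standard medium (horizontal) against -Fe medium (vertical), 1 point per tested member, with colours for calls on both media, on either alone or on neither. Points lie along the diagonal (r = 0.90, 0.94 and 0.90), and the middle panel, zone 2 to zone 3, holds the 18 members called on both.

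Of 8 peroxidase genes linked to root hairs, 6 were tested, and all 6 rose from zone 2 to zone 3 on both media (medians 4.53 and 5.31). Of all probe sets 22.9% rose in that step on each medium. Zone 3 ended below the first visible hairs. AT4G26010 (PRX44, needed for root hair growth) read 117 and 88.8, 939 and 37.6, 5767 and 5276, and 5458 and 6212 in zones 1 to 4 on standard medium. On -Fe medium it read 17.3 and 13.9, 63.4 and 11.4, 4881 and 5963, and 3416 and 3286. Zones 3 and 4 lay above zones 1 and 2 without overlap on either medium. The rise was 4.74 ± 0.97 (log2, SE, 2 against 2 arrays, adjusted p = 0.00157) on standard and 7.19 ± 0.97 (adjusted p = 8.06e-05) on -Fe medium.

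AT1G30870 (PRX7, a root hair gene of unsettled function) rose by 5.07 ± 1.03 (adjusted p = 0.00151) and 6.52 ± 1.03 (adjusted p = 0.000242) in that step. Its standard intensities were 182 and 112, 1011 and 40.8, 7157 and 7735, and 3695 and 5755 in zones 1 to 4. Its -Fe intensities were 51.7 and 31.9, 191 and 32.1, 7804 and 8493, and 5135 and 3396. In both genes a single array, zone 2 standard replicate 1, lay far above its partner.

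AT5G39580 (PRX62) and AT5G64100 (PRX69) have been linked to root hair growth at low temperature. PRX62 rose by 3.42 ± 0.65 on standard (adjusted p = 0.00101) and 4.54 ± 0.65 on -Fe medium (adjusted p = 0.000125). It went from 45 and 4.88 in zone 2 to 511 and 140 in zone 3 on standard medium, and from 21.1 and 17.2 to 793 and 478 on -Fe medium. PRX69 rose by 3.28 ± 0.94 (adjusted p = 0.0113) and 4.39 ± 0.94 (adjusted p = 0.00189). Its standard arrays read 2001 and 201 in zone 2 and 7107 and 5539 in zone 3. Without zone 2 standard replicate 2 or zone 3 standard replicate 1 its standard call was lost.

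AT3G49960 (PRX35) and AT1G34510 (PRX8) were near the floor of the arrays in the tip. On standard medium PRX35 read 18.9 and 3.07, 179 and 1.31, 2533 and 2187, and 1124 and 1797 in zones 1 to 4. On -Fe medium it read 1.02 and 0.757, 0.797 and 0.716, 627 and 509, and 259 and 79.1. It rose from zone 2 to zone 3 by 5.85 ± 0.99 (adjusted p = 0.000486) and 6.08 ± 0.99 (adjusted p = 0.00031).

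PRX8 also rose in the next step. From zone 2 to zone 3 it rose by 4.33 ± 0.59 (adjusted p = 0.000124) and 3.88 ± 0.59 (adjusted p = 0.000175), from 7 and 1.43 to 426 and 118 on standard medium and from 0.748 and 0.889 to 120 and 116 on -Fe medium. From zone 3 to zone 4 it rose by 2.13 ± 0.59 on -Fe medium (adjusted p = 0.0278), to 558 and 527. That call was lost without any single array of those 4 and with an offset of 1 (adjusted p = 0.0788). On standard medium zone 4 read 440 and 1592, a step that did not pass. The sizes for both genes depend on the offset, and with an offset of 1 the zone 2 to 3 steps on -Fe medium were 8.33 for PRX35 and 6.04 for PRX8.

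The measured root hair markers moved beside these genes. EXPA7 and EXPA18, expansin genes of root hair cells, had summed intensities, from zone 1 to zone 4, of 89.7 to 139, 61.9 to 645, 6339 to 6488 and 3044 to 5917 on standard medium. On -Fe medium the sums were 43.6 to 60.3, 29.6 to 129, 7823 to 9387 and 1994 to 4092. EXPA7 rose by 4.68 ± 0.80 and 6.45 ± 0.80 from zone 2 to zone 3. The part of hair cell number in the rise of the peroxidase genes was not tested.

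**Figure D3:**
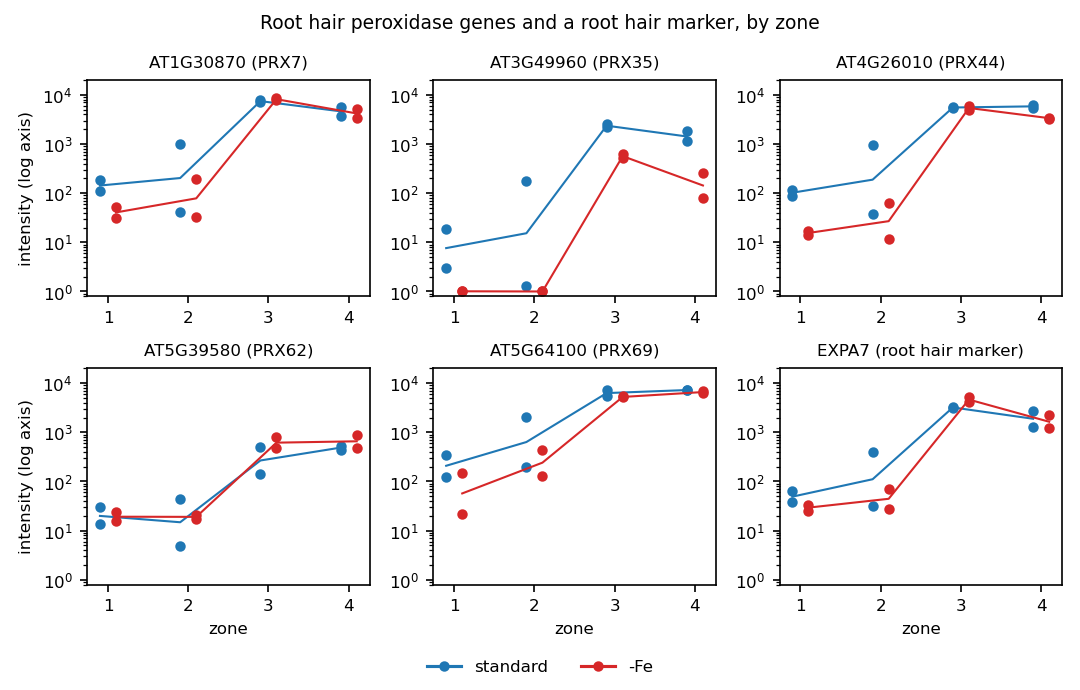
Intensity (log axis, values below 1 drawn at 1) of 5 root hair peroxidase genes and of the marker EXPA7 in zones 1 to 4, with points for arrays and lines through the geometric means, blue for standard and red for -Fe medium. Each gene is high in zones 3 and 4, and AT3G49960 (PRX35) has its -Fe points below its standard points in every zone. Its -Fe points in zones 1 and 2 lie near the floor of the arrays.

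A second group was tied to 1 regulator, and AT4G11290 and AT4G16270 in it were already high in zone 2. UPBEAT1 (UPB1) is a transcription factor known to repress peroxidase genes at the border of the meristem, and AT4G11290 (PRX39), AT4G16270 (PRX40) and AT5G17820 (PRX57) are its reported targets. UPB1 itself read 45.8 and 80, 543 and 339, 266 and 865, and 41.1 and 94.6 in zones 1 to 4 on standard medium. On -Fe medium it read 43.9 and 26.0, 296 and 331, 268 and 263, and 31.2 and 50.4. It was higher in zones 2 and 3 than in zones 1 and 4 on every array of both media.

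UPB1 rose from zone 1 to zone 2 by 2.67 ± 0.51 (adjusted p = 0.0061) on standard and 2.94 ± 0.51 (adjusted p = 0.0026) on -Fe medium. It fell from zone 3 to zone 4, by -2.79 ± 0.51 (adjusted p = 0.00819) and -2.52 ± 0.51 (adjusted p = 0.00608). On standard medium the first call was lost without zone 1 standard replicate 1 or zone 2 standard replicate 1, and the second without zone 3 standard replicate 2 or zone 4 standard replicate 1.

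PRX40 followed the same course. Its standard intensities were 57.9 and 67.1, 469 and 209, 194 and 572, and 5.39 and 13.6, and its -Fe intensities 80.4 and 40.5, 445 and 161, 310 and 369, and 16.3 and 10.7. Zone 4 was the lowest zone on every array. The fall from zone 3 to zone 4 was -4.36 ± 0.57 (adjusted p = 0.0014) on standard and -4.04 ± 0.57 (adjusted p = 0.000944) on -Fe medium, and both stood without any single array. The rise from zone 1 to zone 2 was 2.20 ± 0.57 (adjusted p = 0.0205) and 2.08 ± 0.57 (adjusted p = 0.0167). It was lost on standard medium without either zone 1 standard replicate or zone 2 standard replicate 1, and on -Fe medium without zone 1 -Fe replicate 2 or zone 2 -Fe replicate 1.

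PRX39, which is also among the peroxidases needed for Casparian strip lignin, rose from zone 1 to zone 2 by 2.92 ± 0.77 (adjusted p = 0.0224) on standard and 2.96 ± 0.77 (adjusted p = 0.014) on -Fe medium. It read 360 and 313, 3379 and 1971, 3256 and 3878, and 2135 and 981 on standard medium, and 785 and 92.7, 3104 and 1545, 3616 and 3091, and 1667 and 521 on -Fe medium. These calls were lost without the same arrays as those of PRX40. Its difference from zone 3 to zone 4 was -1.29 ± 0.77 and -1.83 ± 0.77 and did not pass.

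PRX57 stayed high in zone 4. On standard medium it read 356 and 255, 2971 and 345, 7546 and 11819, and 5894 and 6508, and on -Fe medium 242 and 50, 1316 and 1078, 7981 and 9737, and 7314 and 5712. It rose from zone 1 to zone 2 on -Fe medium (3.32 ± 0.78, adjusted p = 0.0089, lost without zone 1 -Fe replicate 2) and from zone 2 to zone 3 on both (3.20 ± 0.78, adjusted p = 0.00453, lost without zone 2 standard replicate 2, and 2.88 ± 0.78, adjusted p = 0.008). The 3 targets thus held 2 and 3 rises in the step from zone 1 to zone 2, where 10.6% and 13.4% of all probe sets rose. From zone 3 to zone 4 they held 1 fall on each medium, where 5.3% and 8.74% of all probe sets fell.

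**Figure D4:**
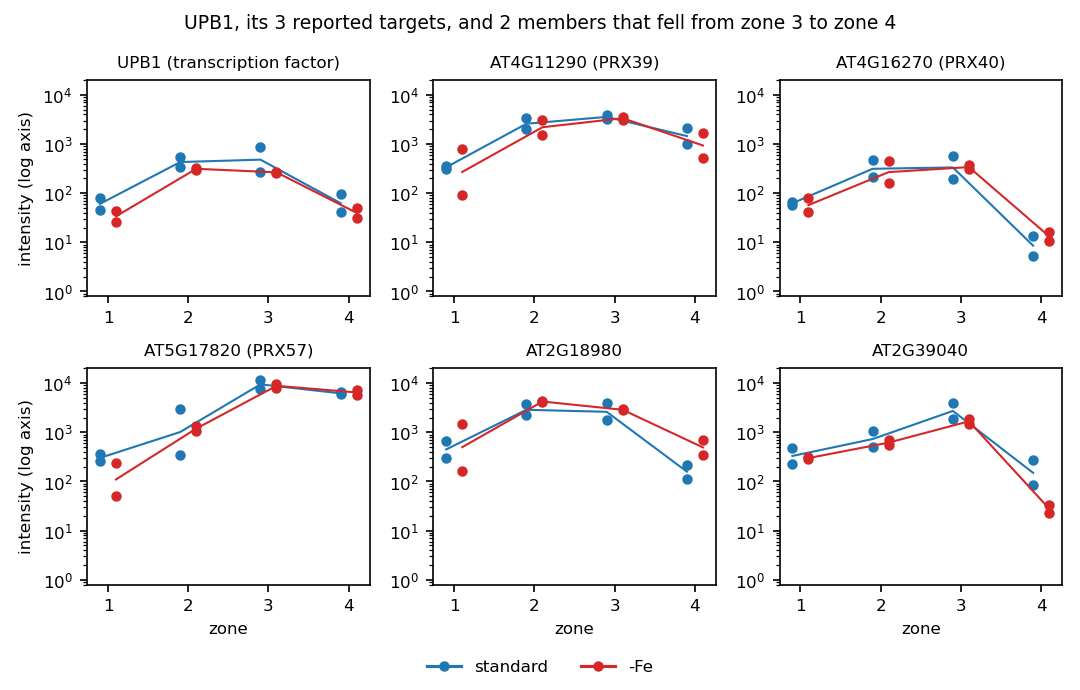
Intensity (log axis) of UPB1, of PRX39, PRX40 and PRX57, and of 2 further members that fell from zone 3 to zone 4, in zones 1 to 4. Points are arrays and lines join geometric means, blue for standard and red for -Fe medium: PRX40, AT2G18980 and AT2G39040 drop in zone 4 on both media, while PRX57 stays near its zone 3 level.

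Besides PRX40, AT2G18980, AT2G39040 and AT5G06730 fell from zone 3 to zone 4 on both media. AT2G39040 read 227 and 480, 1045 and 508, 1907 and 3881, and 83.9 and 268 on standard medium, and 317 and 282, 542 and 704, 1489 and 1881, and 34 and 23 on -Fe medium. Its highest arrays were those of zone 3, and on -Fe medium its zone 4 arrays lay below all others. Its fall was -4.10 ± 0.52 (adjusted p = 0.00135) on standard and -5.55 ± 0.52 (adjusted p = 0.000132) on -Fe medium, and both stood without any single array. Its rises from zone 2 to zone 3, 1.89 ± 0.52 (adjusted p = 0.00942) and 1.43 ± 0.52 (adjusted p = 0.0365), were lost on standard medium without replicate 2 of zone 2 or zone 3 and on -Fe medium without any of those zones' 2 -Fe arrays. The -Fe rise was also lost with median centring (adjusted p = 0.0689).

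AT2G18980 read 297 and 677, 3731 and 2210, 1749 and 3899, and 219 and 114 on standard medium, and 1492 and 167, 4386 and 4074, 2910 and 2830, and 693 and 351 on -Fe medium. It rose from zone 1 to zone 2 by 2.66 ± 0.77 (adjusted p = 0.0318) and 3.05 ± 0.77 (adjusted p = 0.0123). It fell from zone 3 to zone 4 by -3.98 ± 0.77 (adjusted p = 0.0106) and -2.52 ± 0.77 (adjusted p = 0.0443). None of the 4 calls stood without every single array: the standard rise was lost without either zone 1 standard replicate or zone 2 standard replicate 1, the standard fall without zone 3 or zone 4 standard replicate 2, the -Fe rise without zone 1 -Fe replicate 2 or either zone 2 -Fe replicate, and the -Fe fall without any of 12 arrays. The -Fe fall was also lost with an offset of 1 (adjusted p = 0.0534) and without the filter (adjusted p = 0.058).

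AT5G06730 was seen in zones 2 and 3 alone, with 50.1 and 33 and then 33.3 and 42.7 on standard medium and 18.4 and 12.2 and then 42.2 and 33.4 on -Fe medium. In zones 1 and 4 each of its 8 values lay below the offset, from 0.51 to 7.22. Its rise from zone 1 to zone 2 (2.52 ± 0.37, adjusted p = 0.00237) and its fall from zone 3 to zone 4 on standard medium (-2.39 ± 0.37, adjusted p = 0.00341) stood without any single array. On -Fe medium it rose in both lower steps, by 1.33 ± 0.37 (adjusted p = 0.0189) and 0.99 ± 0.37 (adjusted p = 0.0412), and fell by -1.93 ± 0.37 (adjusted p = 0.00483). The first of these was lost without zone 1 -Fe replicate 2 or either zone 2 -Fe replicate, the second without any of 5 arrays and with an offset of 1 (adjusted p = 0.173), quantile normalization (adjusted p = 0.0755) or median centring (adjusted p = 0.0748), and the third without zone 4 -Fe replicate 2. With that offset the steps from zone 1 to zone 2 were 4.58 and 2.82, and those from zone 3 to zone 4 -4.34 and -3.03.

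Of the 5 peroxidase genes known to be needed for Casparian strip lignin, 3 were tested: PRX39 (above), AT1G44970 (PRX9) and AT5G66390 (PRX72). From zone 2 to zone 3, 2 of the 3 rose on each medium, where 22.9% of all probe sets rose on each. PRX39 differed by 0.46 ± 0.77 (adjusted p = 0.645) on standard and 0.61 ± 0.77 (adjusted p = 0.54) on -Fe medium in that step and did not pass. PRX9 read 31.3 and 19.5, 173 and 15.1, 2438 and 1178, and 1737 and 2715 on standard medium. On -Fe medium it read 27.6 and 0.676, 36.8 and 8.82, 2267 and 3458, and 1980 and 2053. It rose from zone 2 to zone 3 by 4.73 ± 0.85 (adjusted p = 0.000669) and 6.69 ± 0.85 (adjusted p = 5.34e-05), with no overlap of arrays and with both calls kept without any single array.

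PRX72, which also acts in stem lignification, rose in the same step by 5.05 ± 1.45 (adjusted p = 0.0117) and 6.94 ± 1.45 (adjusted p = 0.00168). Its standard arrays read 139 and 29, 505 and 7.56, 5121 and 1671, and 6227 and 6069, and its -Fe arrays 47.5 and 10.5, 144 and 0.516, 3790 and 4943, and 5649 and 6356. Its zone 2 replicates lay far apart on both media, and the standard call was lost without zone 2 standard replicate 2 or zone 3 standard replicate 1. GSO1, the receptor kinase that seals the strip and the 1 of 8 Casparian strip genes measured, rose in both lower steps on both media. Its steps were 1.72 ± 0.35 and 2.74 ± 0.35 on standard medium and 1.33 ± 0.35 and 3.52 ± 0.35 on -Fe medium. From zone 1 to zone 2 its calls were lost without zone 1 standard replicate 2 or zone 2 standard replicate 1, and without zone 1 -Fe replicate 2 or zone 2 -Fe replicate 1.

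Among peroxidase genes linked to xylem or other lignin, 6 of 7 were tested. From zone 2 to zone 3, 4 rose on each medium, where 22.9% of all probe sets rose on each. From zone 3 to zone 4, 2 rose on -Fe medium, where 6.82% of all probe sets rose. AT5G51890 (PRX66, reported in differentiating vessels) read 43.6 and 31.6, 108 and 26.1, 1488 and 317, and 1469 and 471 on standard medium, and 34.3 and 25.7, 28.2 and 19.1, 2358 and 1608, and 1484 and 1533 on -Fe medium. It rose by 3.48 ± 0.69 (adjusted p = 0.00135) and 5.98 ± 0.69 (adjusted p = 3.23e-05) from zone 2 to zone 3, and both calls stood without any single array.

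AT2G22420 (PRX17, linked to lignin formation) dipped in zone 2. It read 65 and 105, 20.2 and 35.2, 197 and 152, and 163 and 162 on standard medium, and 56.4 and 96.7, 25.4 and 12.9, 189 and 178, and 92.5 and 87.1 on -Fe medium. It fell from zone 1 to zone 2 by -1.39 ± 0.34 (adjusted p = 0.0174) and -1.65 ± 0.34 (adjusted p = 0.00537), and it rose to zone 3 by 2.39 ± 0.34 (adjusted p = 0.000174) and 2.87 ± 0.34 (adjusted p = 3.9e-05). No other tested member passed the threshold as a fall from zone 1 to zone 2 on either medium. The falls were lost without zone 1 replicate 2 of the same medium, and also without zone 2 standard replicate 1 or zone 2 -Fe replicate 2, while the rises stood without any single array.

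AT4G33420 (PRX47, a vessel peroxidase) and AT5G64120 (PRX71, reported to stiffen walls and limit growth) were split in zone 3 on standard medium. PRX47 read 813 in replicate 1 and 19.3 in replicate 2, and PRX71 read 1494 and 24.3. In zone 4 they read 1311 and 853, and 3358 and 1629. Their standard steps from zone 2 to zone 3, 2.34 ± 1.10 (adjusted p = 0.0943) and 2.80 ± 1.23 (adjusted p = 0.0757), did not pass.

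On -Fe medium, where the zone 3 arrays lay closer (437 and 179 for PRX47, 252 and 292 for PRX71), the same step passed at 4.07 ± 1.10 (adjusted p = 0.00806) and 3.80 ± 1.23 (adjusted p = 0.0209). The PRX71 call was lost without any of those 4 arrays, and the PRX47 call without zone 2 -Fe replicate 2 or zone 3 -Fe replicate 1. Whether these steps differ between media was covered by the F test given below, which neither passed.

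AT4G36430 (PRX49) and AT2G41480 (PRX25), both linked to lignin, passed at 1 upward step on each medium, and neither passed the F test given below for a medium difference that changes between zones. PRX49 read 32.4 and 6.11, 534 and 87.2, and 1247 and 349 in zones 2 to 4 on standard medium, and 21.9 and 7.93, 93 and 36, and 1093 and 520 on -Fe medium. It rose by 3.27 ± 0.82 from zone 2 to zone 3 on standard medium (adjusted p = 0.00537) and by 3.52 ± 0.82 from zone 3 to zone 4 on -Fe medium (adjusted p = 0.0126). The calls were lost without zone 2 standard replicate 2 or zone 3 standard replicate 1, and without zone 3 -Fe replicate 2 or zone 4 -Fe replicate 1.

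PRX25 rose by 1.59 ± 0.45 (adjusted p = 0.0114) and 1.76 ± 0.45 (adjusted p = 0.0208) in the same steps. Its standard arrays read 13.4 and 9.67, 70.6 and 34.6, and 90.7 and 52.8 in zones 2 to 4, and its -Fe arrays 12.5 and 11.4, 20 and 15.3, and 119 and 49.9. Its standard call was lost without the same arrays as that of PRX49, and its -Fe call without either zone 3 -Fe replicate or zone 4 -Fe replicate 1. AT5G14130 was the remaining member to rise from zone 3 to zone 4 on -Fe medium, by 4.09 ± 0.91 (adjusted p = 0.0103), from 12.3 and 9.27 to 206 and 451. That call was lost without either zone 3 -Fe replicate or zone 4 -Fe replicate 2. On standard medium its zone 3 arrays read 107 and 2.24 and its zone 4 arrays 290 and 110.

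Further members outside these roles rose as well. AT2G37130 went from 245 and 111 in zone 1 through 2040 and 721 and 6855 and 3992 to 8788 and 7172 in zone 4 on standard medium, and from 112 and 40.5 through 1101 and 1667 and 3590 and 6095 to 8161 and 9338 on -Fe medium. It climbed at each step in the group means. The first step was 2.82 ± 0.54 (adjusted p = 0.0061) and 4.16 ± 0.54 (adjusted p = 0.00105), and the second 2.10 ± 0.54 (adjusted p = 0.00605) and 1.78 ± 0.54 (adjusted p = 0.0144). The -Fe first step stood without any single array. The others were lost without zone 1 standard replicate 2 or zone 2 standard replicate 1, without zone 2 standard replicate 2 or zone 3 standard replicate 1, and without zone 2 -Fe replicate 1 or zone 3 -Fe replicate 2.

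AT4G30170 rose from zone 1 to zone 2 by 2.69 ± 0.49 (adjusted p = 0.00525) on standard and 3.81 ± 0.49 (adjusted p = 0.00108) on -Fe medium. It read 732 and 674 and then 5405 and 3893 on standard medium, and 575 and 117 and then 3537 and 4053 on -Fe medium. The zone 2 arrays lay above the zone 1 arrays without overlap, and the standard call was lost without zone 2 standard replicate 1. AT3G01190 rose in that step on -Fe medium, by 3.38 ± 0.63 (adjusted p = 0.00355), from 1148 and 150 to 4638 and 4242, and this stood without any single array.

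AT5G15180 rose from zone 2 to zone 3, by 4.43 ± 0.72 (adjusted p = 0.000376) and 6.40 ± 0.72 (adjusted p = 2.81e-05). It went from 88.9 and 6.79 to 1118 and 571 on standard medium, and from 7.75 and 2.54 to 709 and 1573 on -Fe medium. AT3G21770 rose there by 2.98 ± 0.68 (adjusted p = 0.00318) and 3.19 ± 0.68 (adjusted p = 0.00191), and already from zone 1 to zone 2 on -Fe medium by 2.63 ± 0.68 (adjusted p = 0.0134), a call lost without zone 1 -Fe replicate 2 or either zone 2 -Fe replicate. AT1G14550, listed with defence genes and next to AT1G14540 on the chromosome, rose there by 3.28 ± 0.85 (adjusted p = 0.00655) and 5.12 ± 0.85 (adjusted p = 0.00034). Its standard call was lost without zone 2 standard replicate 2 or zone 3 standard replicate 1, whereas those of AT5G15180 and AT3G21770 in this step stood without any single array.

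Few members fell away from the tip. AT5G40150 was highest in zone 1 and fell from zone 2 to zone 3 by -1.40 ± 0.34 (adjusted p = 0.00484) on standard and -1.18 ± 0.34 (adjusted p = 0.012) on -Fe medium. It read 190 and 231, 138 and 153, 58.4 and 43.6, and 29.8 and 37.6 on standard medium, and 157 and 190, 151 and 161, 99 and 41, and 39 and 25.3 on -Fe medium. The -Fe call was lost without replicate 2 of zone 2 or zone 3.

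AT2G34060 fell in that step by -1.15 ± 0.38 (adjusted p = 0.025) and -1.51 ± 0.38 (adjusted p = 0.00562), and AT3G28200 on -Fe medium by -1.36 ± 0.37 (adjusted p = 0.00809). AT3G28200 also fell from zone 3 to zone 4 on -Fe medium, by -1.35 ± 0.37 (adjusted p = 0.0268). The AT2G34060 calls were lost without either zone 2 standard replicate or zone 3 standard replicate 1, and without zone 2 -Fe replicate 1. Those of AT3G28200 were lost without zone 3 -Fe replicate 2, and the second also without zone 3 -Fe replicate 1 or zone 4 -Fe replicate 2.

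AT4G21960 (PRXR1) read between 3016 and 7058 on all 16 arrays, and AT1G49570 between 12.3 and 40.7. Neither passed the F test over zones on standard medium (adjusted p = 0.168 and 0.821) or on -Fe medium (adjusted p = 0.347 and 0.297), which does not show that they were level. AT1G68850 passed on -Fe medium (adjusted p = 0.0193) and not on standard medium (adjusted p = 0.412), where its zone 4 arrays read 100 and 7.89.

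In the RefSeq gene order of the TAIR10.1 assembly, 8 pairs of listed members lay next to each other, and both genes were tested in 2 pairs, of the cluster AT5G64100, AT5G64110 and AT5G64120. AT5G64100 (PRX69), AT5G64110 and AT5G64120 (PRX71) each had their highest group mean in zone 4 on both media. AT5G64110 read 52.9 and 2.51 in zone 3 and 72.1 and 33.3 in zone 4 on standard medium, and 24.5 and 18.8 and then 113 and 67.8 on -Fe medium. Over the 16 arrays the log2 values correlated at r = 0.58 between AT5G64100 and AT5G64110 and at r = 0.89 between AT5G64110 and AT5G64120, as a description. Close copies can share probe signal, which was not tested.

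The study compared standard with -Fe roots to learn where along the root iron deficiency acts. Of the 36 members, 1 passed the threshold for a difference between media, and it did so in the mean over the zones. This does not show that the other members were unchanged. AT4G08770 (Prx37, linked to phenolic cross-linking of the wall) read 690 and 611, 1504 and 1583, 1754 and 1932, and 1750 and 1105 in zones 1 to 4 on standard medium. On -Fe medium it read 346 and 314, 911 and 622, 1077 and 1392, and 937 and 484. The -Fe arrays lay below the standard arrays in each zone without overlap.

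Prx37 fell by -0.90 ± 0.15 averaged over the zones (8 against 8 arrays, adjusted p = 0.0102), where 0.739% of all probe sets fell and 0.666% rose (1.41% in either direction). The call stood without any single array, with adjusted p from 0.00276 to 0.034. The differences in zones 1 to 4 were -0.96, -1.03, -0.59 and -1.04, each with an SE of 0.31, and none passed in its own zone. Along the root Prx37 rose from zone 1 to zone 2 by 1.24 ± 0.31 (adjusted p = 0.0174) and 1.17 ± 0.31 (adjusted p = 0.014), calls lost without any of the 4 standard arrays of those zones, and without zone 1 -Fe replicate 2 or zone 2 -Fe replicate 1.

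PRX35 (AT3G49960), given above among the root hair genes, was the other member lower without overlap in all 4 zones, a pattern that 1.01% of all probe sets showed. In zones 1 and 2 this rested on values below the offset of 7.73. The higher -Fe array of PRX35 read 1.02 and 0.797 there, and the lower standard array 3.07 and 1.31. Its differences were -0.98, -2.27, -2.04 and -3.23 (SE 0.99). Their mean of -2.13 ± 0.50 missed the threshold (adjusted p = 0.0588). It passed with a doubled offset of 15.5 (adjusted p = 0.0371), and leaving out zone 2 standard replicate 1 or 2 also brought it past. Over the arrays left out in turn its adjusted p ran from 0.000228 to 0.146. In zone 4 the -Fe arrays of PRX35 read 259 and 79.1 against 1124 and 1797. The marker EXPA7 read 2246 and 1197 against 1287 and 2761 there, and EXPA18 1845 and 797 against 1757 and 3156. Both markers overlapped between media, with differences of -0.20 ± 0.80 and -0.95 ± 0.86, and neither passed. The part of hair cell number in the PRX35 difference was not tested.

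The next in size of mean difference did not pass. AT4G26010 (PRX44) differed by -1.39 ± 0.48 (adjusted p = 0.211), AT5G64100 (PRX69) by -0.86 ± 0.47, AT2G39040 by -0.81 ± 0.26 and AT1G71695 by -0.80 ± 0.43. In zone 4, AT2G39040 differed by -2.15 ± 0.52 (adjusted p = 0.0907), with 34 and 23 on -Fe against 83.9 and 268 on standard medium. AT1G68850, at 283 and 52.8 against 100 and 7.89, differed by 1.69 ± 0.88 with overlapping arrays. AT2G18980 differed by 1.59 ± 0.77, PRX66 by 0.85 ± 0.69, and neither passed.

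Within single zones 0 of 36 members passed in each of zones 1, 2, 3 and 4, where 0.109%, 0.103%, 0.291% and 0.927% of all probe sets did. At an unadjusted p under 0.05 the counts were 4, 5, 2 and 4 (11.1%, 13.9%, 5.56% and 11.1%), against 2.48%, 3.61%, 6.83% and 11.3% of all probe sets. Without single arrays the counts reached 2 in zone 1 (without zone 1 -Fe replicate 1), 2 in zone 2 (without zone 2 standard replicate 2), and 1 in zone 3 (without zone 3 standard replicate 1) and in zone 4 (without zone 2 standard replicate 1 or 2 or zone 4 standard replicate 1). The median difference of the members was -0.28, -0.26, -0.02 and -0.09 in zones 1 to 4, against -0.00, -0.06, -0.06 and -0.09 for all probe sets.

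Members lower on -Fe medium without overlap numbered 9, 5, 8 and 9, and members higher 2, 2, 3 and 4. The same shares of all probe sets were 15.1%, 20.3%, 17% and 26.5% lower and 15.5%, 13.8%, 11.7% and 16.8% higher. The F test of whether the medium difference changed between zones passed for 0 of 36 members, with 0 at an unadjusted p under 0.05. Of all probe sets 0.121% passed and 2.99% had such an unadjusted p.

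**Figure D5:**
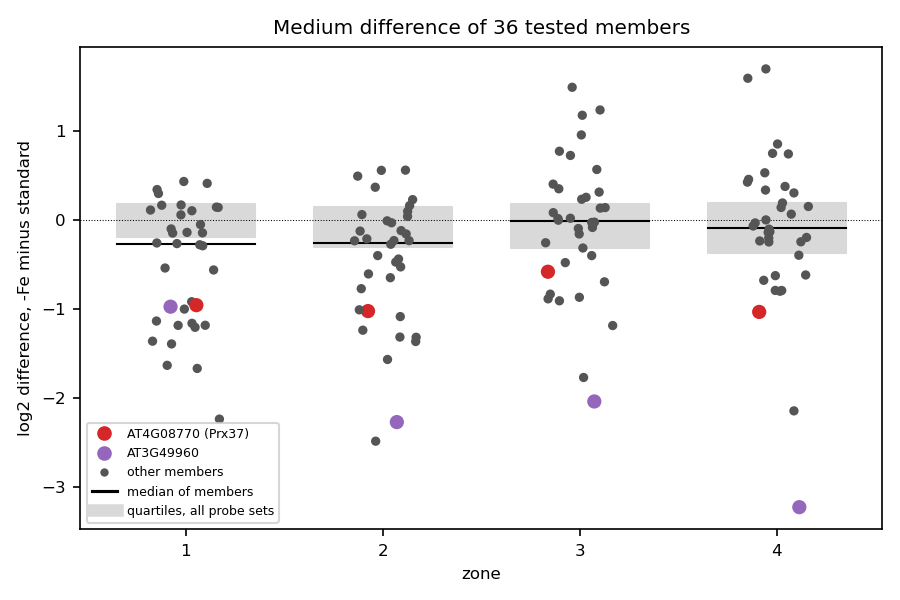
Log2 difference, -Fe minus standard medium, of the 36 tested members in each zone, with a black line at the members' median and a grey band from the lower to the upper quartile of all probe sets. AT4G08770 (Prx37, red) lies between -0.59 and -1.04 in all zones, and AT3G49960 (PRX35, violet) reaches -3.23 in zone 4.

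Genes of reactive oxygen, of monolignol synthesis and of other heme peroxidases were measured in part. NADPH oxidases make the superoxide that gives rise to hydrogen peroxide outside the cell. Of 10 such genes 3 were tested, and all 3 rose from zone 2 to zone 3 on both media, where 22.9% of all probe sets rose on each. AT4G25090 (RBOHG) rose by 4.01 ± 0.58 and 5.28 ± 0.58, AT4G11230 (RBOHI) by 2.59 ± 0.42 and 3.96 ± 0.42, and AT1G19230 (RBOHE) by 2.13 ± 0.41 and 3.51 ± 0.41. HCT, an enzyme of monolignol synthesis and the 1 of 15 such genes measured, rose in that step by 2.51 ± 0.27 and 3.38 ± 0.27. All 8 of these calls survived the removal of each array in turn, and their adjusted p-values were at most 0.00112. Of 10 catalase and superoxide dismutase genes 0 were measured. Of 7 ascorbate peroxidase genes, heme peroxidases of class I, 2 were tested, SAPX and TAPX, both of plastids. SAPX fell on -Fe medium in the mean over zones (-1.79 ± 0.11, adjusted p = 1.07e-06) and in each zone, though the zone 1 call (adjusted p = 0.0498) was lost without any of 15 arrays and the zone 2 call without any of its 4. TAPX differed by -0.26 ± 0.26 in the mean (adjusted p = 0.696) and by -0.50, 0.52, 0.34 and -1.37 in zones 1 to 4, and did not pass.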

How the data were processed

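Array intensities of 16 samples were used as deposited by the authors, who made them with MAS5 per the submitters' processing notes. The version, detection calls and genome build are not given in the sources used here, and per the labels' protocols RNA was amplified in 2 cycles and labelled with biotin. The 64 control probe sets were dropped. The log2 scale was log2(intensity + 7.73), with the 20th percentile of intensity as offset and no further normalization. The filter required a value over the array's 40th percentile on 2 or more arrays (16505 of 22746 probe sets).

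The test was limma 3.58.1 under R 4.3.3 (8 group means, 8 residual degrees of freedom, intensity trend), Benjamini-Hochberg adjusted within each contrast, and the procedure was tested on simulated data. Precision is limited by having 2 arrays a group. Because no label states that replicates were grown apart, the p-values may reflect technical spread between pools alone.

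By the platform annotation 13513 probe sets stood for 1 gene, 503 for several and 8730 were unlisted, and 13484 matched a RefSeq locus of TAIR10.1, used for names and gene order. The members and gene lists were chosen with earlier results of these data known. Named were members called or largest between media, the 5 largest rises and falls per zone step, and role-list members, and others named were chosen after their values were seen. The alternatives were a doubled offset (15.5), an offset of 1, no filter, quantile normalization, median centring, a replicate block, and each array left out in turn. Deviations of same-numbered replicates correlated at r = -0.13 to 0.46 over 28 pairs of groups, above 0.1 in 15. No label ties the numbers to a shared batch and not every pair exceeded 0.1, so the numbers were not taken as pairing.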

Additional observations from a re-analysis of the deposited data

Results flagged for a closer look

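Members below the filter were looked at for -Fe arrays that both lay above both standard arrays of a zone, which gave 13 cases in 8 members, all of low intensity. In zone 4, AT5G19880 read 16.5 on the lower -Fe array against 5.35 on the higher standard array, a log2 difference of 1.40 between the group means. AT5G58400 read 7.89 against 4.06 in zone 4 (1.00), 14.8 against 9.23 in zone 1 (0.72) and 8.61 against 8.48 in zone 2 (0.42). AT4G17690 read 18.2 against 13.2 in zone 4 (0.68), 17.8 against 16.9 in zone 1 (0.38) and 13 against 11.1 in zone 3 (0.35). AT1G24110 read 12.1 against 9.37 in zone 1 (0.63) and 7.84 against 2.65 in zone 2 (0.76). In zone 2, AT5G19890 read 13.9 against 12.8 (0.20) and AT5G58390 read 7.57 against 5.48 (0.54). In zone 1, AT5G05340 read 2.74 against 2.26 (0.58) and AT3G50990 read 1.51 against 1.03 (0.30). In the limma fit without the filter none of the 13 passed. The smallest adjusted p was 0.0616, for AT5G19880, and that of AT5G58400 in zone 4 was 0.433. For comparison, 11.7% to 16.8% of the tested probe sets, which passed the filter, showed this pattern in a zone. The opposite pattern was not counted, but it occurred among the same dim members. In zone 3 the higher -Fe array read 6.05 against 17.2 on the lower standard array for AT5G05340, and 10.9 against 17 for AT5G19890. It read 2.16 against 5.75 for AT5G19880, 2.17 against 3.11 for AT3G50990 and 3.52 against 4.68 for AT1G24110. In zone 2 AT4G17690 read 8.34 against 13.1.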

How the results depend on the processing

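Counts of members called kept within 1.5 times their value under a doubled offset, an offset of 1, no filter (47 members tested), quantile normalization, median centring and the replicate block, except that the count for the mean medium difference went from 1 to 2 with a doubled offset and to 2 with the replicate block, PRX35 being the added member (adjusted p = 0.0371 and 0.0311). The cause was not tested. The replicate block changed no other named call. Of 75 named calls 3 were lost with an offset of 1, 1 without the filter, 1 with quantile normalization and 2 with median centring, and 0 of 86 named results reversed. Leaving out each array in turn gave 0 to 2 calls for the medium in zone 1, 0 to 2 in zone 2, 0 to 1 in zone 3, 0 to 1 in zone 4 and 1 to 3 in the mean (3 without zone 2 standard replicate 2, and 2 without zone 2 standard replicate 1 or zone 1 -Fe replicate 1). It gave 1 to 15, 11 to 25 and 3 to 11 for the standard steps from the tip upwards, and 3 to 12, 16 to 23 and 4 to 12 for the -Fe steps. The F tests gave 0 for the medium by zone, 30 to 34 over the standard zones and 31 to 34 over the -Fe zones. A group then held 1 array, assumed to vary like the others. Median centring moved the median of all probe sets to 0.12 for the medium in zone 2, 0.14 from zone 1 to zone 2 on -Fe medium, and -0.12 and -0.18 from zone 2 to zone 3 on standard and -Fe medium. Quantile normalization gave -0.11 and -0.14 there. The split of all calls was 110 higher and 122 lower for the mean medium difference and 164 and 65 with median centring, and for the -Fe step from zone 1 to zone 2 it was 2216 and 2846, and 2874 and 1525.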

Other observations

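The 2 probe sets shared by a pair of members each also moved along the root, and their signal cannot be split between the genes. The probe set of AT2G38380 and AT2G38390 read 36 and 20.1, 108 and 4.98, 930 and 65.1, and 3133 and 1790 in zones 1 to 4 on standard medium, and 18.8 and 16.5, 17.0 and 4.10, 106 and 28.3, and 1339 and 2643 on -Fe medium. It rose from zone 3 to zone 4 on -Fe medium by 4.89 ± 1.10 (limma, adjusted p = 0.0109), and its standard difference of 3.19 ± 1.10 did not pass (adjusted p = 0.0884). The probe set of AT4G37520 and AT4G37530 rose from zone 1 to zone 2 by 2.67 on standard (adjusted p = 0.00334) and 3.09 on -Fe medium (adjusted p = 0.00135). It rose on to zone 3 on standard medium by 1.65 (adjusted p = 0.00772).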
